A study of Mus musculus with 24 samples.

Results

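The genes described here write, copy, oxidize or remove methylation of cytosine in DNA. They are 10 of the 37315 genes in the deposited table: Dnmt1 and Uhrf1 (maintenance), Dnmt3a, Dnmt3b and Dnmt3l (de novo methylation), Tet1, Tet2 and Tet3 (oxidation), and Tdg and Gadd45a (excision and repair). They were chosen by name, and their rows were found through the GENCODE vM21 annotation. All 10 were followed by RNA sequencing across 12 populations of 2 libraries each. The data described here are RNA levels, and measurements of DNA methylation were not analysed here.

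The populations came from PaX, a mouse embryonic stem cell (ESC) line from a cross of 129S1/SvImJ with CAST/EiJ. Its musculus X chromosome carries a green fluorescent reporter (X-GFP) in Hprt and a truncated Tsix, so that this X is the one silenced upon differentiation, and doxycycline switches on its MKOS cassette (c-Myc, Klf4, Oct4 and Sox2). ESCs were grown in serum with LIF, and neural precursor cells (NPCs), made from these ESCs, were the starting cells of reprogramming. Reprogramming cells were grown on irradiated male mouse embryonic fibroblasts with LIF, ascorbic acid and doxycycline, with or without interferon γ (IFNγ), given at 10 ng/ml over the first 5 days, and were taken at days 2, 5 and 7. Day 2 cells had been separated from dye-stained feeders, and day 5 and day 7 cells had been sorted for SSEA1, a surface marker of early pluripotency. Day 7 cells were further split into cells without X-GFP (GFPneg), with a medium level (GFPmed) and with a high level (GFPhigh), so the day 7 IFNγ cells had been without IFNγ since day 5. All populations derive from 1 line. The methods of the study call the replicates independent, but the labels do not say which cultures they came from, so p-values measure the spread between these libraries.

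Methylation of CpG sites in mammals is set by the de novo enzymes DNMT3A and DNMT3B, helped by the catalytically inactive DNMT3L, and is copied onto the new strand after replication by DNMT1, which UHRF1 brings to hemimethylated sites. TET1, TET2 and TET3 oxidize 5-methylcytosine to 5-hydroxymethylcytosine and further. Thymine DNA glycosylase (TDG) cuts out the most oxidized forms, and GADD45A is a stress-induced adaptor that has been linked to repair-based demethylation. Somatic cells that regain pluripotency have to erase methylation at pluripotency genes and on the silent X chromosome. In the early embryo and in ESCs Dnmt3b, Dnmt3l, Tet1 and Tet2 are active genes, whereas Tet3 is the TET gene of the oocyte and of many neural cells.

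On the mm10 build, Dnmt1 is ENSMUSG00000004099, chromosome 9 from 20907209 to 20959888 on the minus strand and Uhrf1 is ENSMUSG00000001228, chromosome 17 from 56303321 to 56323486 on the plus strand. Dnmt3a is ENSMUSG00000020661, chromosome 12 from 3806007 to 3914443 on the plus strand, Dnmt3b is ENSMUSG00000027478, chromosome 2 from 153649450 to 153687730 on the plus strand and Dnmt3l is ENSMUSG00000000730, chromosome 10 from 78041947 to 78063622 on the plus strand. Of the oxidation genes, Tet1 is ENSMUSG00000047146, chromosome 10 from 62804570 to 62908996 on the minus strand, Tet2 is ENSMUSG00000040943, chromosome 3 from 133463679 to 133545139 on the minus strand and Tet3 is ENSMUSG00000034832, chromosome 6 from 83362373 to 83459084 on the minus strand. Tdg is ENSMUSG00000034674, chromosome 10 from 82629828 to 82650799 on the plus strand, and Gadd45a is ENSMUSG00000036390, chromosome 6 from 67035096 to 67037457 on the minus strand. All of them are annotated as protein coding, and none lies on the X chromosome.

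Because the members act on CpG sites, the CpG content of their own promoters is shown first, for 4 members: Dnmt3b, Dnmt3l and Tet1, which rose with IFNγ in every day 7 population, and Tet2, which fell with IFNγ in GFPneg cells. Each window runs from 250 bases before to 50 bases after a start site in RefSeq (build GRCm38.p6), is written 5′ to 3′ on the strand of the gene, and has every CpG in capitals.
Dnmt3b, chr2:153649199-153649498, plus strand: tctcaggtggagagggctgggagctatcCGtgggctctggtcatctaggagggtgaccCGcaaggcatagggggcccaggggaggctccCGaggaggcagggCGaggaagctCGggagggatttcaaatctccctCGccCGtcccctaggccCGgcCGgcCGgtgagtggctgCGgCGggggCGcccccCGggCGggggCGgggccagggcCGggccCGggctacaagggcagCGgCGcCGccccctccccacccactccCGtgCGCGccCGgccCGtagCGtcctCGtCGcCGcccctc
Dnmt3l, first of its start sites, chr10:78042037-78042336, plus strand: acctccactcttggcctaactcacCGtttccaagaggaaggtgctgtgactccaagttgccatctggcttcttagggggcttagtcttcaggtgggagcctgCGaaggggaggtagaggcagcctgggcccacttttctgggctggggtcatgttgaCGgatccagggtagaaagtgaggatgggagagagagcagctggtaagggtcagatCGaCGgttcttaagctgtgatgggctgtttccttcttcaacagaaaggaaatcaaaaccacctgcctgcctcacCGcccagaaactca
Tet1, chr10:62887275-62887574, minus strand: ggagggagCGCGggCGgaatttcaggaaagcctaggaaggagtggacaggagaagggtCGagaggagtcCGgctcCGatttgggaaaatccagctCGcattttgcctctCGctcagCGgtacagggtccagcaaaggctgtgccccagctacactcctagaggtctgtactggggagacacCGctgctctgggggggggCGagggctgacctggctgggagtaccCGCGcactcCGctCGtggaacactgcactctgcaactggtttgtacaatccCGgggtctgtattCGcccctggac
Tet2, chr3:133544341-133544640, minus strand: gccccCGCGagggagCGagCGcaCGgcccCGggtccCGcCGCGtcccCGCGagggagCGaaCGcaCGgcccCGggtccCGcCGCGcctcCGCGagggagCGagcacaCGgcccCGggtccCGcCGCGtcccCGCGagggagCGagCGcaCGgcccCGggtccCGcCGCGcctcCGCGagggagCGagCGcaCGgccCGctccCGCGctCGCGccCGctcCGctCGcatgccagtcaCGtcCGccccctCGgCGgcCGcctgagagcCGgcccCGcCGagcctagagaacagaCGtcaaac

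All 10 genes were matched to RefSeq promoters, with 17 start sites in all. The Tet2 window held 57 CpGs, the 99.8th percentile of 32851 mouse promoters, whose median was 7. The Dnmt3l window shown held 6, and the other 2 Dnmt3l start sites held 4 and 3. Dnmt3b held 30 and Tet1 17, so these 3 genes ranged from below to well above the median. Uhrf1, not shown, rose with IFNγ in every day 7 population too, and its windows held 12 and 33. Dnmt3a and Tet3, also not shown, were lower with IFNγ in GFPneg cells as well. The Dnmt3a windows held 46, 47 and 18 CpGs and the Tet3 window 22. Of E2F motifs, only the exact letters TTTCCCGC and TTTGGCGC were searched, on both strands, so other forms of the site could have been missed. TTTCCCGC was found at no start site of the 10 genes (1.07% of all promoters) and TTTGGCGC at the third start site of Dnmt1 (0.514%). These matches describe letters in these windows and do not show binding.

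Each library had 24746109 to 37056508 reads on genes, and values are given as normalized counts, the reads divided by 1 size factor per library. The level of a gene in a bulk population cannot tell fewer expressing cells from less RNA per cell. Marker genes followed the labels of ESCs and NPCs. The summed level of 7 neural markers was 42060.1 to 45730.5 in NPCs and 634 to 699 in ESCs, and that of 9 pluripotency markers was 841 to 1237 in NPCs and 153166 to 158181 in ESCs. Genes of the Y chromosome, which these cells lack and the male feeders carry, summed to 218 to 253 in day 2 control and 125 to 223 in day 2 IFNγ cells and to at most 12.5 in any other library. The 7 fibroblast markers summed to 40837 to 60570 in day 2 control cells, 24554 to 29970.4 in day 2 IFNγ cells and 28358 to 40587 in NPCs.

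**Figure D1:**
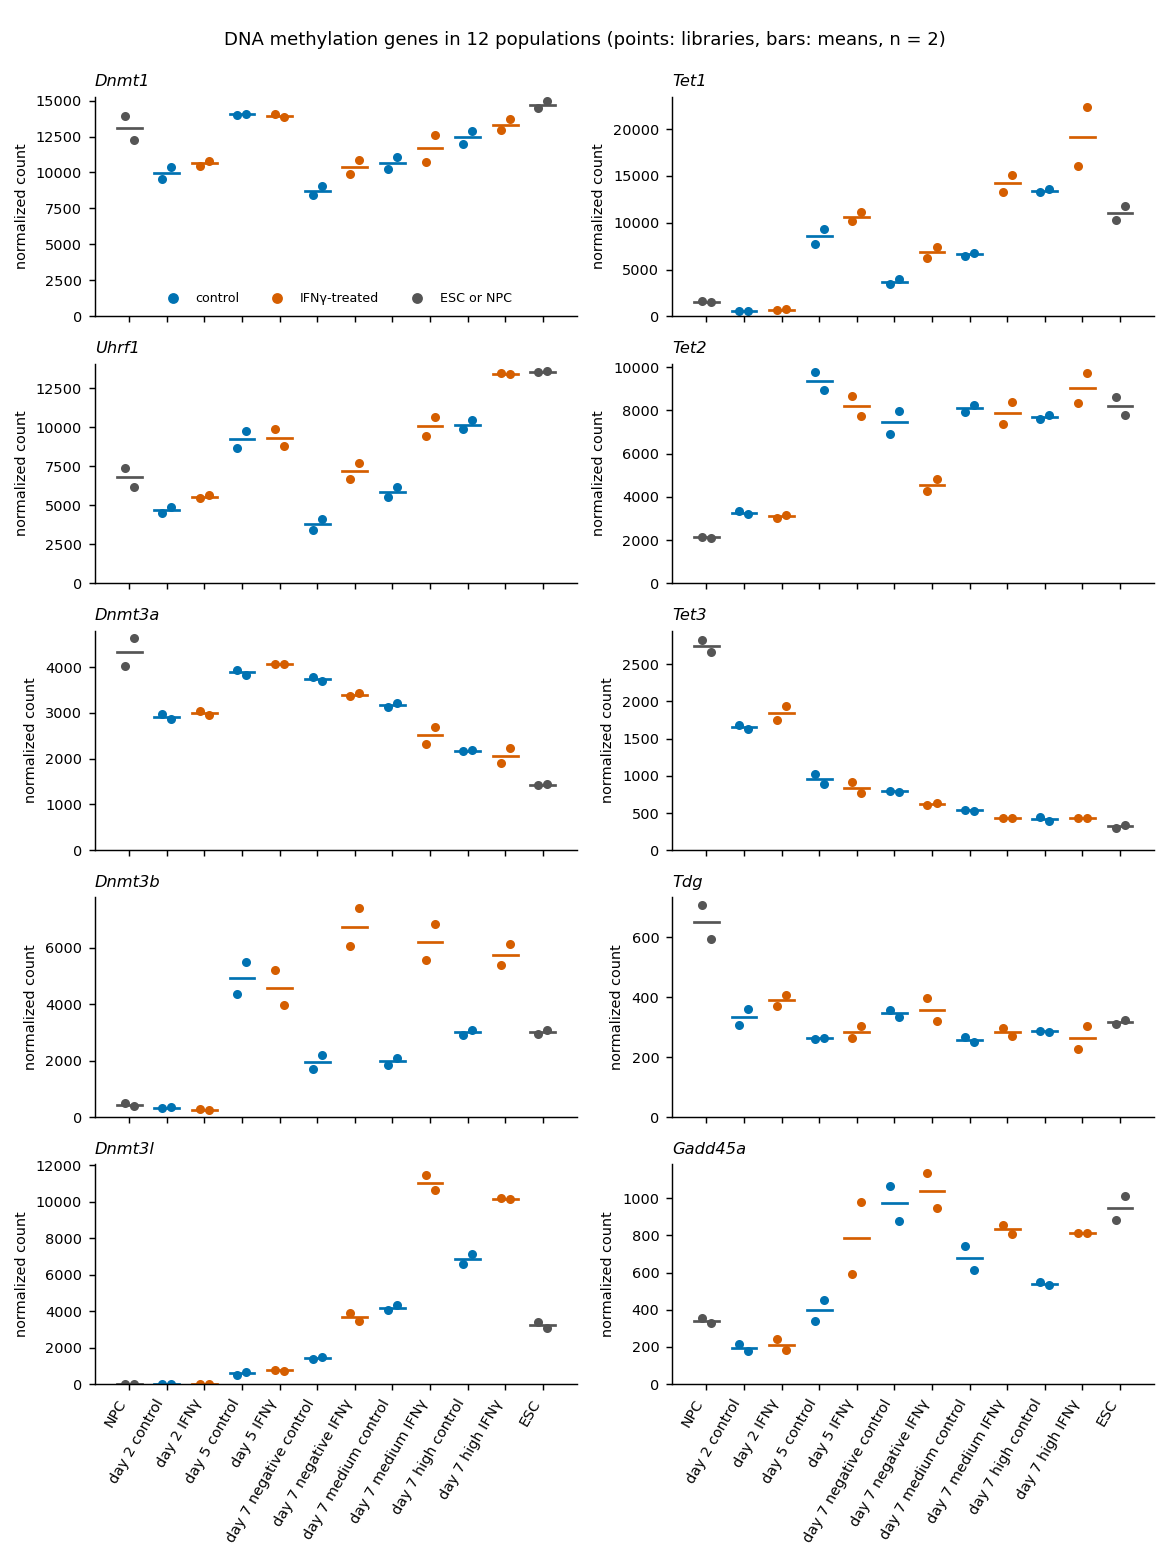
Normalized count (y axis, linear from 0) of each of the 10 genes in the 12 populations (x axis). Points are the 2 libraries of a population and bars their mean, with control cells in blue, IFNγ-treated cells in orange and ESCs and NPCs in gray. Dnmt3b, Dnmt3l and Tet1 had higher values with IFNγ than without in all 3 day 7 populations, and Tet3 was highest in NPCs and lowest in ESCs.

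Dnmt1, the maintenance methyltransferase, varied least of the 10 genes between populations. It was lowest in day 7 GFPneg control cells (8406 and 9083) and highest in ESCs (14448 and 14945), a ratio of 1.68 between the means. NPCs had 13901 and 12266 normalized counts and day 5 control cells 13990.1 and 14083. In the order of the 12 population means, 8 of the 11 neighboring pairs had overlapping libraries. Uhrf1, the factor that recruits DNMT1, covered a wider range, from 3444 and 4144 in GFPneg control cells to 13537 and 13570.5 in ESCs, a ratio of 3.57. In control cells it went from 7415 and 6149 in NPCs to 4534 and 4897 at day 2 and 8697 and 9750.2 at day 5. At day 7 control libraries had 5512 and 6139 in GFPmed and 9871 and 10449.9 in GFPhigh cells, above both GFPneg libraries in each case.

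The de novo genes Dnmt3a and Dnmt3b moved in opposite directions between NPCs and ESCs. Dnmt3a had 4017 and 4642 normalized counts in NPCs, 2969 and 2866 in day 2 control, 3941 and 3834 in day 5 control and 1422 and 1446 in ESCs. NPCs were thus the highest and ESCs the lowest of the 12 populations. At day 7 the control libraries had 3776 and 3695 in GFPneg, 3122 and 3224 in GFPmed and 2166 and 2184 in GFPhigh cells, each pair below the pair before it. Dnmt3b had 486 and 395 in NPCs, 327 and 344 in day 2 control and 4369.6 and 5495 in day 5 control cells. It then had 1703 and 2211 in GFPneg, 1861 and 2085 in GFPmed and 2907 and 3098 in GFPhigh control cells. ESCs, at 2957 and 3093, overlapped with GFPhigh control cells.

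Dnmt3l, the cofactor of the de novo enzymes, was all but absent before day 5. The 2 NPC libraries held 4 reads in all, the day 2 control libraries 3 and the day 2 IFNγ libraries 0. At day 5 control cells had 505 and 674 normalized counts, and at day 7 1382 and 1487 in GFPneg, 4089 and 4317 in GFPmed and 6615 and 7128 in GFPhigh control cells. ESCs had 3421 and 3061, less than any library of GFPmed or GFPhigh cells. The order of the populations was without overlap from day 5 control cells upward. Summed over libraries, the ratio of ESCs to NPCs was 1754 (95% counting interval 685 to 6439.9), and that of day 5 to day 2 control cells was 389 (95% counting interval 133 to 1891). Counting error only is covered by these intervals. Aire, on the opposite strand, shares 67 of the 2988 exonic bases of Dnmt3l (2.24%) and had 2695 and 2141 in GFPmed IFNγ cells and 0 and 0 in NPCs. How strand was treated in counting is not given in the sources used here, so reads of the shared bases cannot be told apart.

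The TET genes changed places during reprogramming. Tet3 had 2827 and 2667 normalized counts in NPCs, 1683 and 1631 in day 2 control, 1028 and 884 in day 5 control and 298 and 344 in ESCs, the highest and lowest populations being those at either end. Tet1 had 1601 and 1514 in NPCs, 589.6 and 589.6 in day 2 control, 7718 and 9355 in day 5 control and 10285 and 11817 in ESCs. At day 7 the Tet1 control libraries had 3411 and 4014 in GFPneg, 6483 and 6749.8 in GFPmed and 13278 and 13593 in GFPhigh cells, so that GFPhigh cells lay above ESCs and GFPneg cells below day 5. Tet2 had 2159.6 and 2116 in NPCs, 3335 and 3197 in day 2 control, 9787 and 8959 in day 5 control and 8633 and 7768 in ESCs. Unlike Tet1, Tet2 had overlapping libraries across the neighboring populations from day 5 control cells, the highest, down to GFPneg control cells (6933 and 7968), and was lowest in NPCs.

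Levels per kilobase of annotated exon allow the members of a family to be compared. Tet3 made up 42.2% and 41.7% of the summed TET level in the 2 NPC libraries and 1.49% and 1.66% in the 2 ESC libraries. The share of Tet1 was 11.3% and 11.7% in day 2 control, 43.8% and 50.9% in day 5 control and 55.7% and 61.4% in ESC libraries. Day 2 cells were thus Tet2-rich, with a Tet2 share of 58.5%, and the summed TET level per kilobase was 331 there, 1165 at day 5 and 1220.3 in ESCs. With the longest transcript of each gene as its length in place of all exons, the mean Tet1 share in ESCs was 45.4% instead of 58.5%, and that of Tet2 was 52.8% instead of 39.9%, so the rank of Tet1 over Tet2 in ESCs depends on the length used. The share of Dnmt3b in the sum of Dnmt3a and Dnmt3b was 28.3% and 21.7% in NPCs, 26.4% and 28.1% in day 2 control, 78.3% and 82.4% in day 5 control and 87.1% and 87.5% in ESCs, and its rank over Dnmt3a in ESCs held with both lengths.

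**Figure D2:**
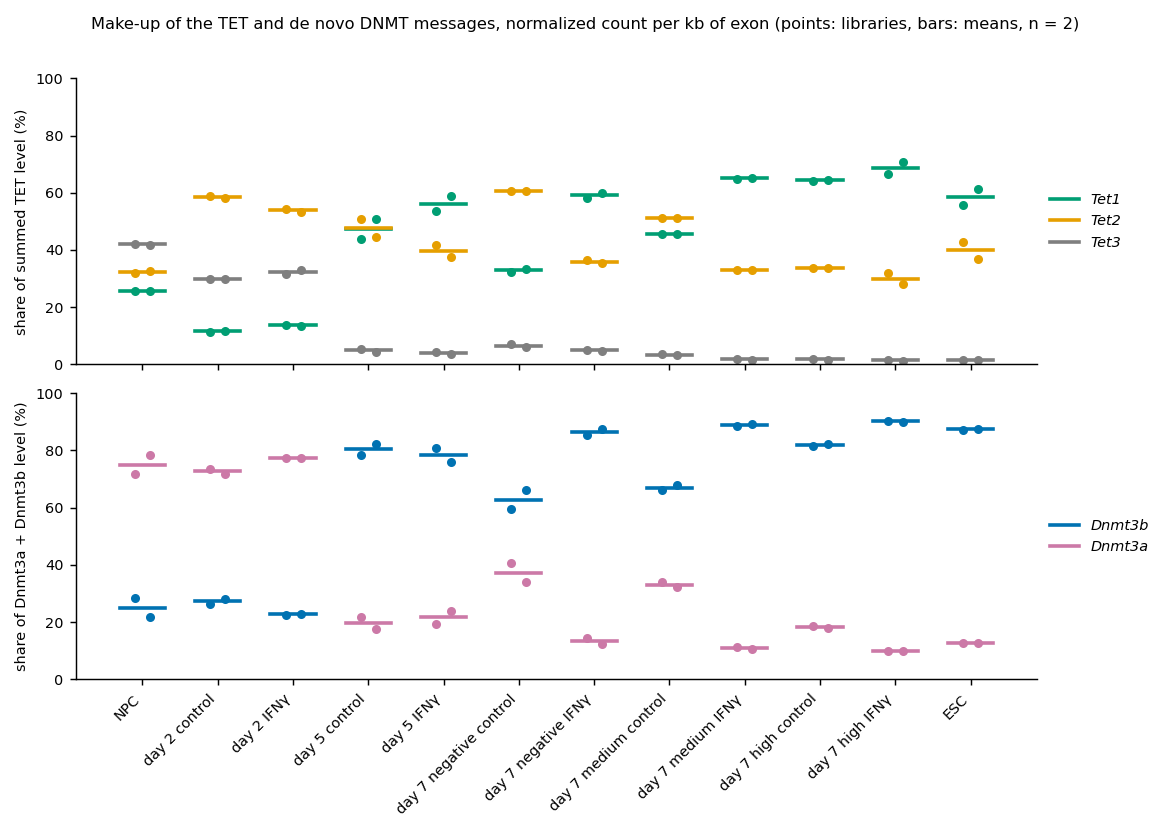
Share (%, y axis) of each TET gene in the summed TET level (top) and of Dnmt3a and Dnmt3b in their sum (bottom), from normalized counts per kilobase of exon, in the 12 populations (x axis). Points are libraries and bars means of n = 2. Tet3 fell from 42.0% in NPCs to 1.57% in ESCs, and at day 7 the Tet1 and Dnmt3b shares were higher with IFNγ in each X-GFP population.

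Tdg, the glycosylase, was highest in NPCs and changed little among the other populations. It had 709 and 594 in NPCs and between 226 and 409 in the other 22 libraries. In the order of the means, the NPC libraries lay above all others, and of the other 10 neighboring pairs only ESCs and GFPhigh control cells had separate libraries. Gadd45a, the stress-induced adaptor, had 354 and 329 in NPCs, 214 and 179.6 in day 2 control, 339 and 455 in day 5 control and 881 and 1009.7 in ESCs. At day 7 its control libraries had 1064 and 879.8 in GFPneg, 740.2 and 616 in GFPmed and 548 and 533 in GFPhigh cells, the reverse of the order of Uhrf1 and Tet1.

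Differences were tested with limma on log2(normalized count + 1) over all genes with a mean above 10 in the libraries compared, two-sided, at a Benjamini-Hochberg adjusted p of 0.1. Log2 fold changes are on that scale and are given with their SE. Comparisons that name the same population share its libraries and are not independent of each other. Between ESCs and NPCs, 7 of the 10 genes were higher in ESCs and 3 lower, against 42.2% of all genes called higher and 43.4% lower (85.6% in either direction). Tet1 was higher by 2.82 ± 0.083 (adjusted p = 3.26e-06), Dnmt3b by 2.78 ± 0.11 (adjusted p = 6.52e-06) and Tet2 by 1.94 ± 0.070 (adjusted p = 5.03e-06). Tet3 was lower, at −3.10 ± 0.10 (adjusted p = 3.91e-06), as were Dnmt3a (−1.59 ± 0.084) and Tdg (−1.03 ± 0.12). Gadd45a (1.46 ± 0.11) and Uhrf1 (1.01 ± 0.10) were higher as well. All 10 genes had separate libraries in this comparison, as had 91.9% of all genes, and the median difference of the 10 was 1.23 against −0.027 over all genes tested. Of 10 S phase and proliferation markers, 9 were called higher and 1 lower in ESCs, and their part was not tested. Dnmt1 was called at 0.17 ± 0.078, a call that was lost without ESC replicate 1 (0.19), ESC replicate 2 (0.15) or NPC replicate 2 (0.080), while without NPC replicate 1 its difference was 0.26. Scaling the libraries to the same total lowered the median of all genes by 0.13 here and left Dnmt1 at 0.043 with its call lost.

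From NPCs to day 2 control cells, 8 of the 9 genes that passed the filter fell and 1 rose, against 31.6% of all genes called higher and 37.6% lower (69.2% in either direction). Tet1 fell most (−1.40 ± 0.085 on the log2 scale, adjusted p = 9.66e-05), followed by Tdg (−0.95 ± 0.15), Gadd45a (−0.80 ± 0.16) and Tet3 (−0.73 ± 0.074). Tet2 rose by 0.61 ± 0.069 (adjusted p = 6.91e-04). The falls of Dnmt3a (−0.57 ± 0.090), Uhrf1 (−0.52 ± 0.11), Dnmt1 (−0.40 ± 0.092) and Dnmt3b (−0.38 ± 0.15) were smaller. All 9 had separate libraries, as had 83.9% of all genes. Dnmt3l was filtered out, with 4 reads in NPCs and 3 at day 2. The Y-linked feeder genes were present at day 2 and near 0 in NPCs, and the S phase and proliferation markers were lower at day 2 (9 of 10 called), with sums of 78060 to 85167 against 99936 to 113080, and the part of either in these differences was not tested. Without day 2 control replicate 1 the calls of Dnmt1 (−0.34) and Uhrf1 (−0.46) were lost, and Dnmt3b lost its call without that library (−0.35), without day 2 control replicate 2 (−0.42) and without NPC replicate 1 (−0.24).

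Between day 2 and day 5 of the control course, 8 of the 10 genes rose and 2 fell, against 34.9% of all genes called higher and 35.6% lower (70.6% in either direction). Day 2 cells had not been sorted for SSEA1 and day 5 cells had, so time and sort cannot be told apart. Dnmt3b rose from 336 ± 12.4 to 4933 ± 796 normalized counts (mean ± SD of 2 libraries), which is 3.86 ± 0.12 on the log2 scale (adjusted p = 2.70e-06). Tet1 rose from 589.6 ± 0.0378 to 8537 ± 1157, by 3.85 ± 0.10 (adjusted p = 2.30e-06). Tet2 rose by 1.52 ± 0.068, Gadd45a by 1.00 ± 0.19, Uhrf1 by 0.97 ± 0.077, Dnmt1 by 0.50 ± 0.064 and Dnmt3a by 0.41 ± 0.063, and Dnmt3l was called as well. Tet3 (−0.80 ± 0.10) and Tdg (−0.35 ± 0.14) fell, against the direction of the other members. All 10 genes had separate libraries, as had 84.2% of all genes, and the median difference of the 10 was 0.98 against 0.00075. Of the proliferation markers 9 of 10 rose as well (with sums of 102666 to 107832 at day 5). All 7 fibroblast markers (median −4.95) and all 4 Y-linked feeder genes (median −4.90) were called lower at day 5. The part of these lists in the differences was not tested. Scaling to the same total lowered the median of all genes by 0.13. The call of Tdg was lost without day 2 control replicate 2 (−0.23), day 5 control replicate 1 (−0.33) or day 5 control replicate 2 (−0.36).

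GFPneg control cells at day 7, compared with day 5 control cells, had 6 of the 10 genes lower and 3 higher, against 34.2% of all genes called higher and 29.5% lower (63.7% in either direction). Dnmt3b (−1.34 ± 0.14, adjusted p = 1.83e-04), Uhrf1 (−1.29 ± 0.10), Tet1 (−1.20 ± 0.11) and Dnmt1 (−0.68 ± 0.061) fell. Dnmt3l (1.30 ± 0.14) and Gadd45a (1.30 ± 0.16) rose, and Tdg rose by 0.40 ± 0.12. Tet2 (−0.33 ± 0.082) and Tet3 (−0.27 ± 0.10) fell, while Dnmt3a, at −0.057 ± 0.063, did not pass. All 10 genes, Dnmt3a included, had separate libraries, as had 80.3% of all genes. The proliferation markers were lower in GFPneg cells (10 of 10 called, with sums of 75224 to 80235 against 102666 to 107832), and their part was not tested. Both populations were SSEA1-sorted, but day 7 cells were also sorted for the silent reporter, so day and X-GFP class cannot be told apart. Tet3 lost its call without day 5 control replicate 1 (−0.16), GFPneg control replicate 1 (−0.28) or replicate 2 (−0.26), and Tdg without GFPneg control replicate 1 (0.34).

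Within day 7 control cells, GFPmed over GFPneg cells had 4 of the 10 genes higher and 4 lower, against 21.9% of all genes called higher and 25.2% lower (47.0% in either direction). Dnmt3l rose by 1.55 ± 0.062 (adjusted p = 2.39e-07), Tet1 by 0.84 ± 0.071 (adjusted p = 1.00e-05), Uhrf1 by 0.62 ± 0.082 and Dnmt1 by 0.28 ± 0.057. Tet3 (−0.56 ± 0.077), Gadd45a (−0.52 ± 0.11), Tdg (−0.42 ± 0.10) and Dnmt3a (−0.24 ± 0.054) fell. Dnmt3b (0.022 ± 0.10) and Tet2 (0.12 ± 0.065) did not pass and were the members with overlapping libraries (71.5% of all genes had separate ones), but both passed without GFPneg control replicate 2 (0.21 and 0.22). GFPhigh over GFPmed control cells had 5 genes higher and 3 lower, against 31.4% of all genes called higher and 32.7% lower (64.1% in either direction). Tet1 rose by 1.02 ± 0.046 (adjusted p = 1.35e-10), Uhrf1 by 0.80 ± 0.055, Dnmt3l by 0.71 ± 0.053, Dnmt3b by 0.61 ± 0.064 and Dnmt1 by 0.22 ± 0.051. Dnmt3a (−0.54 ± 0.054), Tet3 (−0.37 ± 0.094) and Gadd45a (−0.32 ± 0.093) fell, and Tet2 (−0.072 ± 0.047) and Tdg (0.15 ± 0.11) did not pass, although all 10 had separate libraries, as had 79.6% of all genes. The Gadd45a call was lost without GFPmed control replicate 1 (−0.19). Scaling to the same total changed the calls over all genes between GFPmed and GFPneg cells from 3363 higher and 3871 lower to 4408 and 2912, and Tet2 was then called higher (0.20). The summed pluripotency markers moved with these classes, from 28658 to 32051 in GFPneg to 57837 to 59059 in GFPmed and 108791 to 110060 in GFPhigh control cells. Of the 10 proliferation markers, 9 were called higher in GFPmed over GFPneg and 10 in GFPhigh over GFPmed cells. The part of both lists in the differences was not tested.

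**Figure D3:**
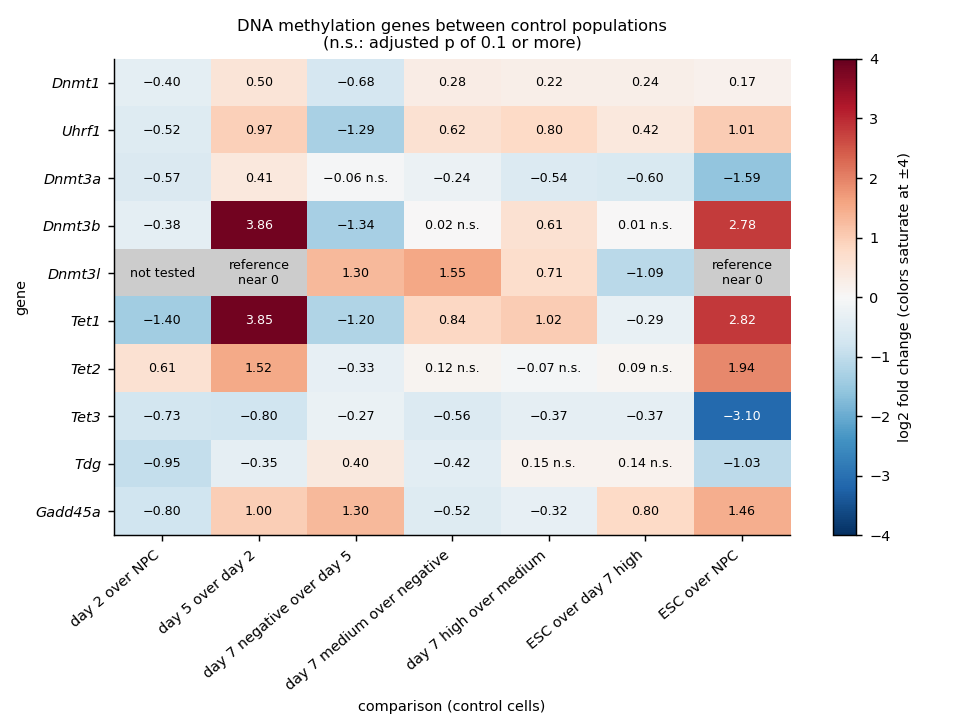
Log2 fold change of each gene (rows) in 7 comparisons of control populations (columns), printed in each cell and colored from blue (lower) to red (higher). Cells marked n.s. had an adjusted p of 0.1 or more, and gray cells were not tested or had a reference near 0 reads. Dnmt3b and Tet1 rose by 3.86 and 3.85 from day 2 to day 5, and Tet3 had a negative value in every comparison.

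At day 2, during IFNγ treatment, of the 9 members tested 1 passed, against 5.03% of all genes called higher and 3.45% lower (8.49% in either direction). This was Uhrf1, with 5443 and 5641 with IFNγ and 4534 and 4897 without, a log2 fold change of 0.23 ± 0.059 (adjusted p = 0.0862). Its libraries did not overlap. Tet1, with 705 and 740.1 against 589.6 and 589.6, had 0.29 ± 0.081 (adjusted p = 0.107), and Dnmt3b, with 274 and 268 against 327 and 344, had −0.31 ± 0.11 (adjusted p = 0.189). The remaining 6 lay between −0.073 (Tet2) and 0.22 (Tdg). Separate libraries were seen for 7 members, as for 51.2% of all genes, and the median of the 9 was 0.10 against 0.0054. No member was called lower in this fit, with 1 at an unadjusted p under 0.05 (Dnmt3b). In either direction, 3 of the 9 members and 3266 of the 15697 genes tested had an unadjusted p under 0.05. The count of calls fell to 0 without day 2 control replicate 1, without IFNγ replicate 1 or without IFNγ replicate 2, and the Uhrf1 difference was then 0.18, 0.26 and 0.21. With a replicate block more members were called, and calls over all genes went from 1332 to 4995. The S phase and proliferation markers summed to 78060 to 85167 in control and 92275 to 95779.6 in IFNγ cells at day 2. Of the 7 fibroblast markers 4 were called lower with IFNγ and 0 higher (median −0.92). The 4 Y-linked feeder genes had a median of −0.53, with 0 called. The part of these lists in the differences was not tested.

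At day 5 none of the 10 genes passed in limma without a replicate block. Of all genes, 1.65% were called higher and 0.535% lower (2.18% in either direction). Among the 10, 3 had an unadjusted p under 0.05 (Dnmt3l, Tet1 and Gadd45a), 0 were called by edgeR and 2 by DESeq2 (Tet1 and Gadd45a). Of the 15133 genes tested, 2839 had an unadjusted p under 0.05. Over all genes edgeR called 257 higher and 84 lower, and DESeq2 called 517 higher and 321 lower. With a replicate block some members were called, and calls over all genes went from 330 to 3379. No label says that a replicate number marks a shared culture. Gadd45a had 592 and 977 normalized counts with IFNγ and 339 and 455 without, a log2 fold change of 0.95 ± 0.25 (adjusted p = 0.149). The IFNγ libraries lay above the control libraries but far apart from each other. Tet1, with 10138 and 11154 against 7718 and 9355, had 0.32 ± 0.10 (adjusted p = 0.193), and Dnmt3l, with 800.2 and 717 against 505 and 674, had 0.38 ± 0.16 (adjusted p = 0.263). Tet2 had −0.19 ± 0.083 (adjusted p = 0.273), and the other 6 lay between −0.18 (Tet3) and 0.12 (Tdg). Separate libraries were seen for 6 members, as for 53.3% of all genes, and the median of the 10 was 0.040 against −0.0017. Without IFNγ replicate 1, Tet1 (0.39) and Gadd45a (1.31) were called. The difference between the day 5 and the day 2 effect was called for none of the 10, against 0.676% of all genes, the largest being that of Gadd45a among the 9 members tested on both days, at 0.85 ± 0.36 (adjusted p = 0.492). In these differences 1 of the 10 members, Gadd45a, had an unadjusted p under 0.05, as had 1539 of the 15837 genes tested. DESeq2 and edgeR were not run on these differences.

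At day 7, 2 days after IFNγ had been withdrawn, the GFPneg cells of the IFNγ arm had 5 of the 10 genes higher and 3 lower than control cells, against 61.9% of all genes called, 31.1% higher and 30.8% lower. Dnmt3b had 6058 and 7421 normalized counts with IFNγ and 1703 and 2211 without, 3.44 times as many, or 1.79 ± 0.13 on the log2 scale (adjusted p = 7.26e-06). Dnmt3l had 3914 and 3448 against 1382 and 1487 (1.36 ± 0.080, adjusted p = 3.28e-06). The IFNγ libraries of both de novo genes lay above the control libraries. Uhrf1 had 6659 and 7709 against 3444 and 4144 (0.92 ± 0.10, adjusted p = 6.52e-05), and Tet1 had 6283 and 7442 against 3411 and 4014 (0.89 ± 0.10, adjusted p = 8.15e-05). Here too the libraries did not overlap. Tet2 moved the other way, with 4285 and 4816 against 6933 and 7968 (−0.71 ± 0.083, adjusted p = 1.16e-04), as did Tet3, with 607 and 633 against 795 and 786 (−0.35 ± 0.084, adjusted p = 0.00659). The Tet1 share of the TET level was 58.3% and 59.8% with IFNγ and 32.5% and 33.3% without, while the summed TET level per kilobase was 751 and 729. With the longest transcript as length, the mean Tet1 share was 46.3% with IFNγ, below the 48.2% of Tet2, and 22.6% without, and the summed level was 1030.1 with IFNγ and 1143 without, so the direction of the sum depends on the length used.

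Of the other members in GFPneg cells, Dnmt1 rose by 0.25 ± 0.068 (adjusted p = 0.0130) and Dnmt3a fell (−0.14 ± 0.060, adjusted p = 0.0786). Tdg, at 0.043 ± 0.13, and Gadd45a, at 0.10 ± 0.12, had overlapping libraries and did not pass. Separate libraries were seen for 8 members, as for 79.1% of all genes, and the median of the 10 was 0.17 against 0.016. Scaling to the same total raised the median of all genes by 0.16, changed the calls over all genes from 4836 higher and 4781 lower to 6730 and 3417, and turned Dnmt3a to 0.019, and Dnmt3a was not called without any 1 of the 4 libraries (−0.12 to −0.15). Dnmt1 lost its call without control replicate 1 (0.19).

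In GFPmed cells 5 of the 10 genes were higher with IFNγ and 2 lower, against 62.9% of all genes called, 33.3% higher and 29.6% lower. Dnmt3b had 5547 and 6835 normalized counts with IFNγ and 1861 and 2085 without (1.64 ± 0.10, adjusted p = 1.05e-06). Dnmt3l had 11486 and 10645 against 4089 and 4317 (1.40 ± 0.062, adjusted p = 3.79e-07), the highest values of Dnmt3l in the series. Tet1 had 13297 and 15138 against 6483 and 6749.8 (1.10 ± 0.070, adjusted p = 1.54e-06). These IFNγ libraries overlapped with the 13278 and 13593 of Tet1 in GFPhigh control cells. Uhrf1 had 9449 and 10674 against 5512 and 6139 (0.79 ± 0.076, adjusted p = 1.83e-05), and Gadd45a had 854 and 809 against 740.2 and 616 (0.30 ± 0.10, adjusted p = 0.0275). Dnmt3a (−0.34 ± 0.075, adjusted p = 0.00327) and Tet3 (−0.30 ± 0.092, adjusted p = 0.0177) were lower, with separate libraries. Dnmt1 (0.13 ± 0.080), Tdg (0.14 ± 0.12) and Tet2 (−0.042 ± 0.069) did not pass, the Tet2 libraries being 7387 and 8380.2 with IFNγ and 7945 and 8258 without, which overlapped.

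Separate libraries were seen for 8 of the 10 members in GFPmed cells, as for 79.2% of all genes, and the median of the 10 was 0.22 against 0.044. Tet3 lost its call without control replicate 1 (−0.29) or replicate 2 (−0.32), and Gadd45a without control replicate 2 (0.17). Without IFNγ replicate 1 Dnmt1 was called higher (0.25), and without IFNγ replicate 2 Tet2 was called lower (−0.13).

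In GFPhigh cells 6 of the 10 genes were higher with IFNγ and none lower in limma, against 38.5% of all genes called, 18.1% higher and 20.4% lower, and no member had an unadjusted p under 0.05 in the lower direction. DESeq2 called 5 of the 10 and edgeR 6. Of the 15598 genes tested, DESeq2 called 1847 higher and 2495 lower, and edgeR called 2718 higher and 3291 lower. Dnmt3b had 5381 and 6137 normalized counts with IFNγ and 2907 and 3098 without (0.94 ± 0.078, adjusted p = 6.95e-06), and Dnmt3l had 10218 and 10148 against 6615 and 7128 (0.57 ± 0.068, adjusted p = 9.18e-05). Uhrf1 had 13457 and 13399 against 9871 and 10449.9 (0.40 ± 0.067, adjusted p = 9.38e-04). In all 3 genes both IFNγ libraries lay above both control libraries. Gadd45a had 812 and 815 against 548 and 533 (0.59 ± 0.092, adjusted p = 5.90e-04). Tet1 had 16015 and 22381 against 13278 and 13593 (0.49 ± 0.12, adjusted p = 0.00917), and the second IFNγ library was the highest Tet1 value of the series. Without it the Tet1 difference was 0.25. Tet2 had 8355 and 9737 against 7628 and 7789 (0.23 ± 0.079, adjusted p = 0.0482).

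Dnmt1 (0.10 ± 0.071), Tet3 (0.066 ± 0.11), Dnmt3a (−0.078 ± 0.085) and Tdg (−0.13 ± 0.15) did not pass in GFPhigh cells. Separate libraries were seen for 7 members, as for 67.6% of all genes, and the median of the 10 was 0.31 against 0.027. Tet2 lost its call without control replicate 1 (0.21), control replicate 2 (0.24) or IFNγ replicate 2 (0.12). Without IFNγ replicate 1 Dnmt1 was called higher (0.14), and without IFNγ replicate 2 Dnmt3a (−0.20) and Tdg (−0.34) were called lower.

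**Figure D4:**
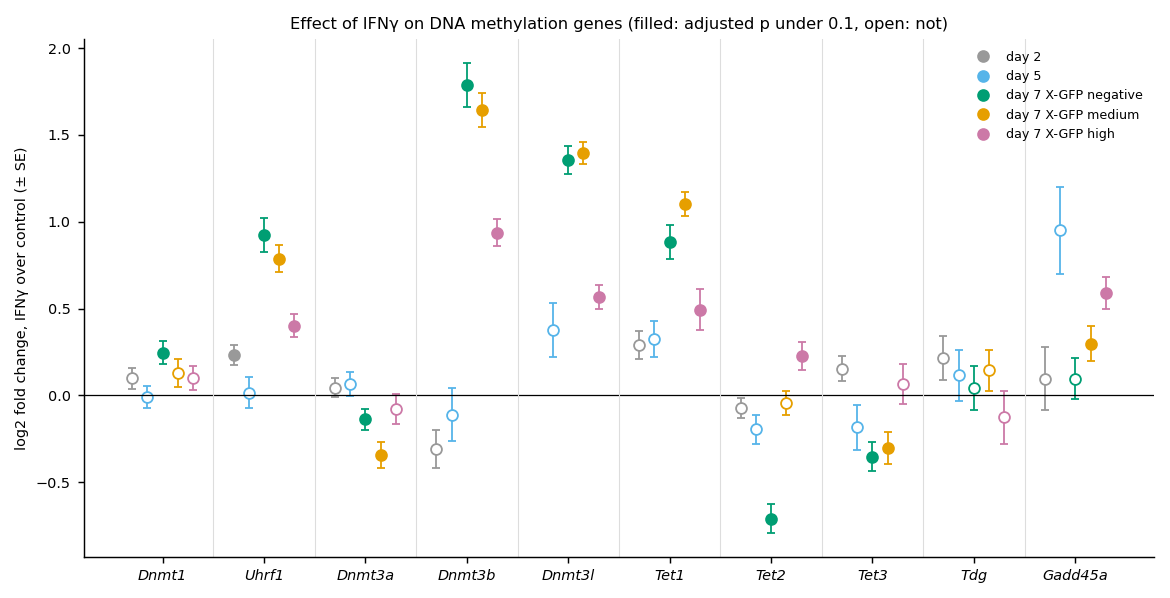
Log2 fold change of IFNγ over control (y axis, bars: SE of the fit) for each gene (x axis) at day 2, day 5 and in the 3 X-GFP populations of day 7, each from 2 against 2 libraries. Filled points passed an adjusted p of 0.1. Dnmt3b, Dnmt3l, Tet1 and Uhrf1 had filled points above 0 in all 3 day 7 populations, and Tet2 had −0.71 in GFPneg and 0.23 in GFPhigh cells.

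The genes Uhrf1, Dnmt3b, Dnmt3l and Tet1 thus passed in the same direction in all 3 X-GFP populations. These populations were split from SSEA1-sorted day 7 cells and may share cultures, so the 3 results need not be independent. The share of all genes that passed in this way in all 3 was not counted. Some other measures also differed with IFNγ in the same cells. The summed pluripotency markers were 45192 to 47954 with IFNγ and 28658 to 32051 without in GFPneg cells, 96097 to 100434 and 57837 to 59059 in GFPmed cells, and 126126 to 134175 and 108791 to 110060 in GFPhigh cells. The S phase and proliferation markers summed to 100499 to 106461 with IFNγ and 75224 to 80235 without in GFPneg cells, and to 121784 to 130057 and 94929 to 97324 in GFPmed cells. In GFPhigh cells they summed to 138338 to 145677 and 129884 to 133768. The fibroblast markers had lower sums with IFNγ, at 722 to 793 against 4314 to 4933 in GFPneg, 409.8 to 536 against 4893 to 5503 in GFPmed and 406 to 545 against 1946 to 2419 in GFPhigh cells, all 7 being above 0 in each population. Of the fibroblast markers tested, 0 were called higher and 1 lower of 6 in GFPneg, 1 and 4 of 6 in GFPmed, and 1 and 1 of 5 in GFPhigh cells, where their median was 0.51. The 4 primitive endoderm markers summed to 691 to 711 with IFNγ and 383 to 397 without in GFPneg cells, to 584 to 650.3 and 402 to 437 in GFPmed cells, and, in the other direction, to 320.1 to 367 and 389.6 to 412 in GFPhigh cells. The part of these measures in the differences of the members was not tested.

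Whether the effect of IFNγ differed between X-GFP populations was tested with an interaction term on the 8 libraries concerned, and both tests share the GFPmed libraries. GFPhigh cells had a smaller effect than GFPmed cells in 4 members, against 12.8% of all genes called and 8.06% called in this direction. The differences were −0.83 ± 0.088 for Dnmt3l (adjusted p = 0.00271), −0.71 ± 0.14 for Dnmt3b (adjusted p = 0.0175), −0.61 ± 0.17 for Tet1 (adjusted p = 0.0606) and −0.38 ± 0.10 for Uhrf1 (adjusted p = 0.0487). Of the 9 pluripotency markers 7 were called lower in this difference too (median −0.60), as were 5 of the 10 proliferation markers (median −0.30). The 4 primitive endoderm markers had 2 lower (median −1.10), and 0 of these lists were called higher. Of the 5 fibroblast markers tested 3 were called higher (median 1.13) and 0 lower. The part of these lists was not tested. Dnmt3l, Dnmt3b, Tet1 and Uhrf1 are the 4 genes that IFNγ raised in every X-GFP population, and their control levels were higher in GFPhigh than in GFPmed cells. The count of 4 was 2 without GFPmed control replicate 1 and 1 without GFPhigh control replicate 2, and without GFPhigh IFNγ replicate 1 the difference of Tet1 was −0.36. Between GFPmed and GFPneg cells, the effect differed for Tet2 alone among the 10, by 0.67 ± 0.12 (adjusted p = 0.00825), against 15.7% of all genes. Scaling to the same total lowered the median of all genes by 0.16 in this test and changed the calls over all genes from 1142 higher and 1307 lower to 399 and 2867, and Dnmt3a was then called as well (−0.37), as it was without GFPmed IFNγ replicate 2 (−0.31).

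The GFPhigh cells of both arms were set against ESCs. Dnmt3l was lower in ESCs than in GFPhigh control cells (−1.09 ± 0.062, adjusted p = 3.00e-09), as was Tet1 (−0.29 ± 0.061), with separate libraries. Dnmt3a (−0.60 ± 0.060) and Tet3 (−0.37 ± 0.12) were lower in ESCs too, whereas Gadd45a (0.80 ± 0.088), Uhrf1 (0.42 ± 0.049) and Dnmt1 (0.24 ± 0.052) were higher. Thus 3 of the 10 were higher and 4 lower in ESCs, against 37.8% of all genes called higher and 37.9% lower (75.8% in either direction), and 8 of the 10 had separate libraries (85.1% of all genes). Dnmt3b (0.011 ± 0.058), Tet2 (0.087 ± 0.056) and Tdg (0.14 ± 0.11) did not pass. Compared with GFPhigh IFNγ cells, ESCs had 5 genes lower and 2 higher, against 33.9% of all genes called higher and 33.2% lower (67.1% in either direction), and 9 of the 10 had separate libraries (81.0% of all genes). Dnmt3l (−1.65 ± 0.072), Dnmt3b (−0.93 ± 0.076), Tet1 (−0.78 ± 0.13), Dnmt3a (−0.52 ± 0.086) and Tet3 (−0.44 ± 0.12) were lower in ESCs. Uhrf1, with 13537 and 13570.5 in ESCs and 13457 and 13399 in the IFNγ cells, differed by 0.013 ± 0.066 and did not pass, and Tet2 (−0.14 ± 0.085) and Tdg (0.27 ± 0.15) did not pass either. Of the 10 proliferation markers, 9 were called higher and 1 lower in ESCs against control cells. Against IFNγ cells 5 were called higher and 1 lower, and their part was not tested.

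Some of these calls rested on 1 library. In the comparison with control cells, Tet3 lost its call without GFPhigh control replicate 1 (−0.27), Tet2 gained one without ESC replicate 2 (0.16), and the Tet1 difference was −0.19 without ESC replicate 1. In the comparison with IFNγ cells, the 2 genes called higher were Gadd45a (0.21 ± 0.092), which lost its call without ESC replicate 2 (0.12), and Dnmt1 (0.14 ± 0.069), which lost it without ESC replicate 1 (0.17), ESC replicate 2 (0.12) or GFPhigh IFNγ replicate 1 (0.10). Tet2 (−0.25) gained a call without IFNγ replicate 1 and Tdg (0.48) without IFNγ replicate 2.

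Another 41 genes of the same pathway were followed as 5 lists. At day 7 they moved with IFNγ in both directions, with 22 higher and 9 lower in GFPneg cells, 21 and 7 in GFPmed cells, and 17 and 8 of the 40 tested in GFPhigh cells. Over all genes, 31.1% were called higher and 30.8% lower in GFPneg, 33.3% and 29.6% in GFPmed, and 18.1% and 20.4% in GFPhigh cells, and the counts of each list below stand against these shares. At day 2, when 8.49% of all genes passed, 2 of 40 passed, both higher (Neil3 and Cxxc5), and at day 5, against 2.18%, 1 of 41 passed, also higher (Idh2, which makes 2-oxoglutarate, the cosubstrate of TET enzymes). The list of maintenance partners held 8 genes, such as the clamp Pcna, the ligase Lig1 and the remodeler Hells. It also held Dppa3, which keeps UHRF1 from chromatin, and Pcna is among the proliferation markers too. From GFPneg to GFPhigh cells, 7, 6 and 5 of these genes were higher and 0, 1 and 2 lower. Their median difference was 0.49, 0.41 and 0.24, against 0.016, 0.044 and 0.027 over all genes. Cdca7, a partner of Hells, had 2778 and 2938 normalized counts with IFNγ and 1128 and 1362 without in GFPneg cells (1.20 ± 0.093, adjusted p = 1.15e-05). Both IFNγ libraries lay above both control libraries.

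The methyl-CpG readers, most of which bind methylated DNA, had medians below 0. Against 30.8%, 29.6% and 20.4% of all genes, they were lower in 4, 3 and 3 of 7 cases from GFPneg to GFPhigh cells and higher in 1, 1 and 0, with medians of −0.26, −0.17 and −0.21. Zbtb4, a reader with zinc fingers, had 135 and 134 with IFNγ and 293 and 247 without in GFPhigh cells (−0.99 ± 0.15, adjusted p = 5.36e-04), and Mbd2, a repressor that binds methyl-CpG, had 338 and 316 against 539 and 530.5 (−0.71 ± 0.11). Both were lower in all libraries with IFNγ. Of the 5 genes of the methyl donor cycle, Mat2a, which makes S-adenosylmethionine, had 4984 and 5015 against 2553 and 2571 in GFPmed cells (0.96 ± 0.057, adjusted p = 1.09e-06) and was the most increased of its list in each X-GFP population. The list had 3, 2 and 3 genes higher and 1, 1 and 0 lower.

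The 13 genes of base excision repair and the Gadd45 family had 5, 6 and 4 higher and 4, 1 and 3 lower from GFPneg to GFPhigh cells. Apex1, the endonuclease that follows a glycosylase, rose by 1.05 ± 0.11 in GFPneg, 0.80 ± 0.091 in GFPmed and 0.56 ± 0.082 in GFPhigh cells. Polb, the polymerase that fills the gap, fell in GFPneg (−0.92 ± 0.10), GFPmed (−0.75 ± 0.077) and GFPhigh cells (−0.29 ± 0.083). Gadd45g, a relative of Gadd45a, fell in GFPneg (−0.74 ± 0.16) and GFPhigh cells (−0.89 ± 0.21) and had −0.32 ± 0.16 (adjusted p = 0.118) in GFPmed cells, which did not pass. The 8 partners of the TET enzymes, of which 7 were tested in GFPhigh cells, had 6, 6 and 5 higher and 0, 1 and 0 lower, the medians being 0.30, 0.36 and 0.22.

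**Figure D5:**
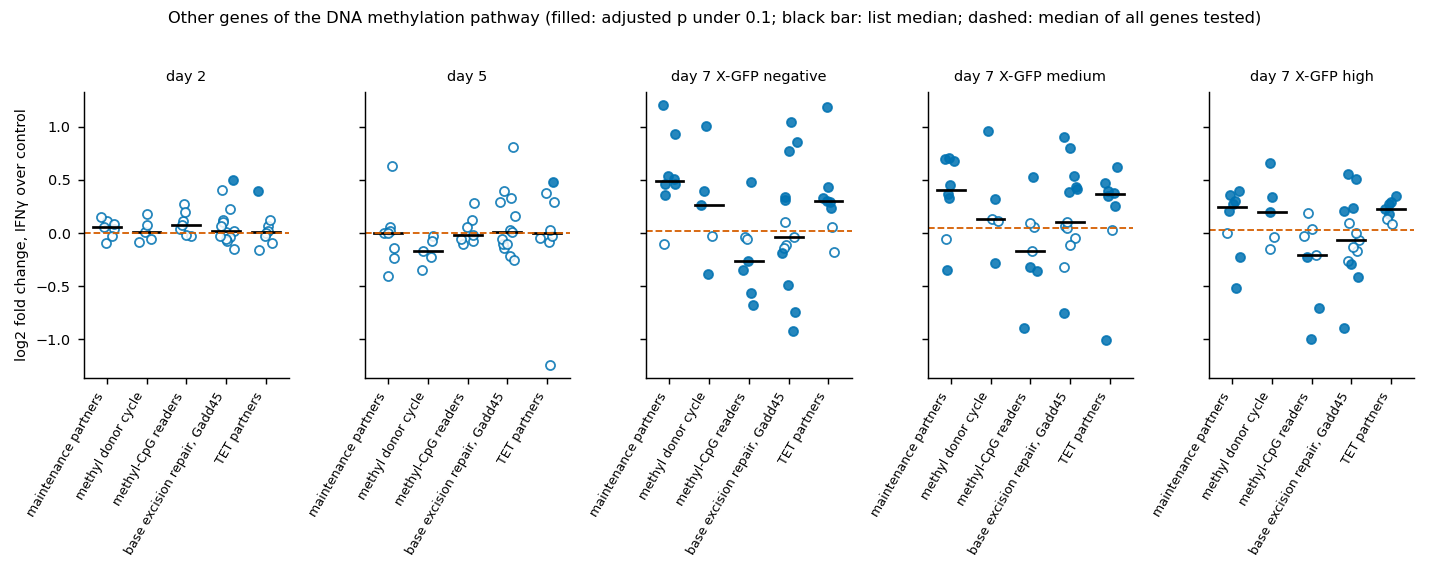
Log2 fold change of IFNγ over control (y axis) for the 41 other genes of the pathway in 5 lists (x axis), with 1 panel per comparison of 2 against 2 libraries. Filled points passed an adjusted p of 0.1, black bars are list medians and the dashed line is the median of all genes tested. At day 7 the bars of the maintenance partners lie above the dashed line and those of the methyl-CpG readers below it.

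Between ESCs and NPCs the same 41 genes had 25 higher and 14 lower in ESCs, against 42.2% and 43.4% of all genes. Dppa3, which protects methylated DNA in the zygote and keeps UHRF1 from chromatin, had 1791 and 1729 in ESCs and 0.972 and 0 in NPCs. Cxxc4, a relative of TET proteins that binds CpG DNA, had 2.95 and 1.90 in ESCs and 808 and 765 in NPCs, so the ESC libraries were close to 0. Hmces, a sensor of abasic sites, had 3473 and 2939.6 and 319 and 303 (3.36 ± 0.10), and Gadd45g had 14.7 and 20.9 and 1269 and 839 (−5.80 ± 0.28). From day 2 to day 5 control cells, 21 rose and 12 fell, against 34.9% and 35.6% of all genes, among them Hmces (2.06 ± 0.16) and Gadd45g (−2.24 ± 0.12).

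The genes whose log2 levels over the 12 population means were most like those of the members were listed among 12021 genes with a mean of at least 100. These correlations over 12 means describe shared order, with most of the spread between early and late populations, and carry no test. Uhrf1 was closest to Lig1 (r = 0.987), which seals nicks in replicated DNA, and Dnmt1 to Rad54l (r = 0.958), a gene of homologous recombination. Dnmt3l was closest to Apoc1 (r = 0.996), Tet1 to Kntc1 (r = 0.989), Tet2 to Dnajc21 (r = 0.979) and Tet3 to Zfp46 (r = 0.986). Dnmt3a was closest to Scaf1 (r = 0.978), Dnmt3b to Snord107 (r = 0.979), Tdg to Dnal4 (r = 0.964) and Gadd45a to Wipi2 (r = 0.968). Within the members, r was highest for Tet1 and Dnmt3b (0.937) and lowest for Dnmt3l and Tet3 (−0.929). Dnmt3b and Dnmt3l had r = 0.918, and Dnmt3b and Tet3 −0.792. Few reads were counted for near copies, with Dnmt3c at most 8.96 normalized counts in any library. The pseudogene Tdg-ps, which reads of Tdg could share, had 4.13 to 15.1. How reads that match a member and its near copy equally well were treated is not given in the sources used here. Whether members lost such reads was not tested. On the opposite strand, Glt8d2 overlaps Tdg and E230016M11Rik overlaps Gadd45a, with at most 135 and 131 normalized counts in any library.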

How the data were processed

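Total RNA, depleted of ribosomal RNA and converted into stranded libraries, was sequenced as read pairs from 24 libraries in 12 populations. The authors aligned reads with STAR and allele-aware filtering to mm10 with strain variants masked, counted reads per gene with HTSeq 0.6.1, and deposited the normalized count signal, that is, reads divided by 1 DESeq2 size factor per library. The strand setting of the counting is not given in the sources used here. A deposited table of allelic proportions of X-linked genes was not used, because no member lies on the X chromosome. All values were whole multiples of a library-specific step within a tolerance of 0.01 (100% of values), which gave back the reads, 24746109 to 37056508 per library with a median of 28332222.5. Intervals from reads cover counting error only.

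Of 37315 gene identifiers, 35533 (95.2%) were found in GENCODE vM21, which provided symbols, lengths and positions. Log2(normalized count + 1) was compared with limma 3.58.1 (lmFit and eBayes with trend, R 4.3.3) between the 4 libraries of 2 populations, or with an interaction term over 8 libraries, for genes with a mean above 10. P-values were adjusted over all genes tested (Benjamini-Hochberg), with a threshold of 0.1. Results were recomputed without the filter, with a pseudocount of 0.1, after every library had been scaled to 1 common total, with a single fit of all 24 libraries, with a replicate block, with DESeq2 1.42.0 and edgeR 4.0.16 (quasi-likelihood) on the recovered reads, with each library left out in turn, and with the longest transcript as gene length. A crossed replicate block was added after the data were seen. Fits were tested on simulated data. Tables and figures were made with Python 3.11.15, pandas 2.3.3 and matplotlib 3.10.9.

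All 10 members were named in every comparison. Of the 41 other pathway genes, up to 3 in each direction were named per comparison by the largest absolute fold change among those that passed with a mean of at least 100 in either group, and the genes most like each member were taken by Pearson r over population means. The members and lists were chosen with earlier results of these data known. One promoter motif and 1 marker list are not reported here.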

Additional observations from a re-analysis of the deposited data

Results flagged for a closer look

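For 5 members the effect of IFNγ differed between X-GFP populations at day 7 by an interaction term in limma (adjusted p under the threshold of 0.1, 8 libraries per test). For GFPmed minus GFPneg this was 1 of 10 (Tet2), against 15.7% of all genes called. For GFPhigh minus GFPmed it was 4 of 10, against 12.8% of all genes called. Tet2 was lower with IFNγ in GFPneg cells (−0.71) and had −0.042 in GFPmed cells, a difference of 0.67 ± 0.12 (adjusted p = 0.00825), and this was also called without any 1 of the 8 libraries. The rises of Dnmt3l (1.40 in GFPmed and 0.57 in GFPhigh cells) differed by −0.83 ± 0.088 (adjusted p = 0.00271), a call that was lost with all 24 libraries in 1 fit (adjusted p = 0.588). Those of Dnmt3b (1.64 and 0.94) differed by −0.71 ± 0.14 (adjusted p = 0.0175), a call that was lost without GFPhigh control replicate 2 (−0.66). For Tet1 (1.10 and 0.49) the difference was −0.61 ± 0.17 (adjusted p = 0.0606), a call that was lost without any 1 of the 4 control libraries (−0.58, −0.63, −0.62 and −0.59). For Uhrf1 (0.79 and 0.40) it was −0.38 ± 0.10 (adjusted p = 0.0487), and the call was lost without GFPmed control replicate 1 (−0.31) or GFPhigh control replicate 2 (−0.34). With no filter on low values, the Tet1 and Uhrf1 calls were lost, and that of Uhrf1 was also lost with all 24 libraries in 1 fit.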

How the results depend on the processing

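Most member results kept their direction and their side of the threshold: 157 of 158 with a pseudocount of 0.1, 150 of 158 with no filter, 147 of 158 with all 24 libraries in 1 fit, 147 of 158 after scaling to the same total, 120 of 128 with DESeq2, 125 of 128 with edgeR, and 657 of 752 with a library left out. The number of members called at day 2 (1 in the main test) was 0 with no filter, after scaling or with all 24 libraries in 1 fit, and 0 to 1 with a library left out. At day 5 it was 0 in the main test, 1 with all 24 libraries, 2 with DESeq2 and 0 to 2 with a library left out. For GFPmed minus GFPneg it was 1, with 2 after scaling and 1 to 2 with a library left out, and for GFPhigh minus GFPmed it was 4, with 2 with no filter or all 24 libraries and 1 to 6 with a library left out. The cause of these changes was not tested.

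After scaling to the same total, Dnmt3a with IFNγ in GFPneg cells was 0.019 and Dnmt3b in ESCs against GFPhigh control cells −0.012, and for GFPmed minus GFPneg, Dnmt3l was −0.13, Tet3 −0.12 and Tdg −0.062, all with the opposite sign of the main value. With a library left out, the sign also changed in results that had not passed. For IFNγ these were Gadd45a at day 2 (−0.10 to 0.29), Dnmt1 (−0.019 to 0.00039), Uhrf1 (−0.071 to 0.10) and Dnmt3b (−0.31 to 0.084) at day 5, Tdg (−0.11 to 0.20) and Gadd45a (−0.040 to 0.23) in GFPneg, Tet2 (−0.13 to 0.049) in GFPmed, and Dnmt3a (−0.20 to 0.041), Tet3 (−0.035 to 0.17) and Tdg (−0.34 to 0.086) in GFPhigh cells. They were Dnmt3b between GFPmed and GFPneg control cells (−0.17 to 0.21) and between ESCs and GFPhigh control cells (−0.035 to 0.057). Among differences of effects they were Dnmt3a (−0.0034 to 0.048), Tet1 (−0.11 to 0.17) and Tdg (−0.22 to 0.013) for day 5 minus day 2, Dnmt3b (−0.33 to 0.044), Dnmt3l (−0.052 to 0.13) and Tdg (−0.054 to 0.26) for GFPmed minus GFPneg, and Dnmt1 (−0.15 to 0.092) for GFPhigh minus GFPmed.

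Libraries of a population share replicate numbers with other populations, but no label says that a number marks a shared culture or day. The correlation of replicate differences between the populations compared ranged from −0.146 to 0.406. It was highest for IFNγ against control at day 2 (0.406) and day 5 (0.363), with at most 0.187 in the other comparisons. With a replicate block, 143 of 158 member results stayed on their side of the threshold and 15 were newly called, the members called being 5 at day 2, 4 at day 5, 3 for GFPmed minus GFPneg and 7 for GFPhigh minus GFPmed. A crossed block for day 2 control cells against NPCs, added after the data were seen, left 9 of 9 members on their side.

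Over all genes, the 1332 calls at day 2 were 693 with no filter and 4995 with the block, and the 330 at day 5 were 141 with no filter, 2455 with all 24 libraries, 3379 with the block and 838 with DESeq2. For day 5 minus day 2, 107 calls were 290 with all 24 libraries and 170 with the block. For GFPmed minus GFPneg, 2449 were 1548 with no filter, 1514 with all 24 libraries and 4190 with the block, and for GFPhigh minus GFPmed, 1995 were 897, 1065 and 3078. Dnmt3l, with 4 reads in NPCs and 3 in day 2 control cells, was under the filter and was not tested between these populations or with IFNγ at day 2.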
